A study of Mus musculus with 6 samples.

Results

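The genes followed here govern where activated B cells adhere and migrate, and were the integrin chains *Itga4*, *Itgb7*, *Itgb1*, *Itgal* and *Itgb2*, the sphingosine-1-phosphate (S1P) receptors *S1pr1*, *S1pr2* and *S1pr4*, and the oxysterol receptor *Gpr183*. They were chosen by gene symbol, and all 9 were found among the 46983 genes of the expression table. The RNA came from splenic B cells of C57BL/6 mice, cultured under IgA class switching conditions for 3 days with lipopolysaccharide at 5 µg/ml together with TGF-β, BAFF and IL-5, each present at 10 ng/ml. *Hif1a* KO cells (3 libraries) came from mice in which *Mb1*-cre, active throughout the B-cell lineage, acts on a floxed *Hif1a* allele carried on both chromosomes. WT cells (3 libraries) came from littermates that were either cre-positive with 1 floxed allele or cre-negative with both alleles floxed, and the labels do not say which applied to which library. The mice's age and whether the libraries of a group came from separate mice or cultures were not stated in the labels, so p-values measure the spread between these libraries, which may be technical. Only KO replicate 2 can be told, by its sex (below), to come at least in part from a different mouse than the other KO libraries.

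Integrins are pairs of an α and a β chain. The α4 chain (*Itga4*) pairs with β7 (*Itgb7*) to form α4β7, which binds MAdCAM-1 on vessels of the gut and brings IgA-producing cells there, or with β1 (*Itgb1*) to form VLA-4, which binds VCAM-1. The αL chain (*Itgal*) pairs with β2 (*Itgb2*) to form LFA-1, which binds ICAM-1. S1P receptors read the S1P gradient between blood or lymph and tissue and allow exit from lymphoid organs (S1PR1) or hold cells in place (S1PR2), and GPR183 (EBI2) steers B cells within follicles along gradients of hydroxylated cholesterol. HIF-1α, the product of *Hif1a*, is the oxygen-regulated subunit of a transcription factor.

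None of the 9 genes differed between genotypes at an adjusted p under 0.05 (limma on log2 of FPKM + 1 over 13312 genes, Benjamini-Hochberg adjustment), against a background of 0% of all genes tested. *Gpr183* alone had an unadjusted p under 0.05, where 6.98% of all genes tested did, and *Gpr183* alone had groups that did not overlap, where 10.1% of all genes tested did. With 1 of 9 in either count, the 9 genes stood near the background. FPKM, a read count scaled to the length of the transcript and to the depth of the library, is the unit of every level below. Each fold change is the difference of KO minus WT on the log2(FPKM + 1) scale, and each ± is an SD over 3 libraries unless it is named an SE.

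Depth, recovered from the step that 1 read makes in each library, was 25030210 to 37222477 reads. Replicates 2 and 3 of WT lay apart from the other 4 libraries on the first principal component of all genes tested, at 26.2 and 25.9 against -19.5 to -7.10, with WT replicate 1 at -15.7 among the KO libraries. The B-cell markers *Cd79a*, *Cd79b*, *Ms4a1* and *Pax5* were each at 326 FPKM or more in every library. The floxed gene itself was listed at 36.5, 49.8 and 45.8 FPKM in WT libraries and at 46.5, 45.6 and 52.8 FPKM in KO libraries, a sum over all of its exons that does not show the loss of a floxed part and so checks no label. The Y-linked transcript *Ddx3y* was at 43.3 FPKM in KO replicate 2 and at most 0.00945 FPKM in the other 5 libraries, so the libraries were not all of 1 sex. Of 12 macrophage and monocyte markers, *Lyz2* was at 58.3 and 26.2 FPKM in WT replicates 2 and 3, at 6.18 FPKM in WT replicate 1 and between 0.60 and 3.70 FPKM in KO libraries. The 8 neutrophil markers summed to 38.8 FPKM in WT replicate 1 and at most 0.528 FPKM elsewhere. The macrophage list as a whole summed to 1219 to 2028 FPKM in WT and 1493 to 2905 FPKM in KO libraries, most of it *Apoe*, and its member *Fcgr1* was at most 0.122 FPKM in WT libraries, listed at 0 in WT replicate 3 and in the KO libraries. The part of sex in the results below was not tested, and in bulk RNA fewer cells of a type and less RNA per cell cannot be told apart.

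Since the deleted gene encodes a transcription factor that reads the core letters ACGTG or GCGTG, the 250 bases before the start of each gene were searched for them on both strands, that is also for CACGT and CACGC. RefSeq promoter sequence (GRCm38.p6) was at hand for 6 of the 9 genes, and *S1pr1*, *Itgal* and *Itgb2* were not among them. A match was found in 2 of the 6, *Gpr183* and *S1pr2*, and 38.6% of all 32851 promoters in the same table held one. The sequences of *Gpr183*, the only gene of the 9 with groups apart, of *S1pr2*, and of *S1pr4*, which had the largest fold change and no match, are shown 5′ to 3′ on the strand of the gene, with the matched letters in capitals. They lie at chr14:121965194-121965443 on the minus strand, chr9:20976794-20977043 on the minus strand and chr10:81500138-81500387 on the minus strand. A match describes the letters only and is no measure of binding.
*Gpr183*: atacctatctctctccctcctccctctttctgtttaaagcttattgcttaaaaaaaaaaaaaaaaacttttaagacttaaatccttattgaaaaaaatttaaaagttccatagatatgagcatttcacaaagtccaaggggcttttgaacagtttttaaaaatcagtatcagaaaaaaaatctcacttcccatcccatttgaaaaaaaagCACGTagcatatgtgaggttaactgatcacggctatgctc
*S1pr2*: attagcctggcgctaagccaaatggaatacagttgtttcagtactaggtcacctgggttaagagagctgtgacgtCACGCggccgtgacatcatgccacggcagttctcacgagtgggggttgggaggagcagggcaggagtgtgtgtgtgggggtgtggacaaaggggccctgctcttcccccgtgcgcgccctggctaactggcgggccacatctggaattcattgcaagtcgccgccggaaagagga
*S1pr4*: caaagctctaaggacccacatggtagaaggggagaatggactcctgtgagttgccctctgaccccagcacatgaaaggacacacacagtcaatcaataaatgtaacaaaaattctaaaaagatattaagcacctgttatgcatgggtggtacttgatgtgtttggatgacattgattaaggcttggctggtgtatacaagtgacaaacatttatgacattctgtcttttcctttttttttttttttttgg
The matched letters of *Gpr183* began 40 bases before its start, and those of *S1pr2* began 175 bases before. No match was found in the window of *S1pr4*, or in those of *Itga4*, *Itgb1* and *Itgb7*.

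*Itgal* had the highest mean over all 6 libraries at 129 ± 16.7 FPKM (SD, n = 6), followed by *Itgb1* at 92.3 ± 10.7, *Itgb2* at 83.8 ± 6.49, *Itga4* at 39.7 ± 4.16, *S1pr1* at 30.8 ± 9.92, *S1pr4* at 26.8 ± 8.34, *Itgb7* at 18.8 ± 3.26, *Gpr183* at 5.08 ± 0.728 and *S1pr2* at 1.0 ± 0.313 FPKM. Among all genes tested these means ran from the 92.9th percentile for *Itgal* to the 9.36th for *S1pr2*. Ranges over libraries did not touch between *Itgal* and *Itgb1*, between *Itgb2* and *Itga4*, between *Itgb7* and *Gpr183*, and between *Gpr183* and *S1pr2*. *Itgb1* and *Itgb2* overlapped, with *Itgb1* higher in 5 of 6 libraries, and *Itga4*, *S1pr1*, *S1pr4* and *Itgb7* formed an overlapping run in which *Itga4* exceeded *S1pr1* in 4 of 6 libraries and *S1pr1* exceeded *S1pr4* in 5 of 6.

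The order within that run depends on the transcript length by which reads were divided. The length behind the deposited FPKM of *Itga4* was 3670 bases, the mean over its 5 annotated transcripts, whereas its longest transcript has 9767 bases. The lengths recovered for *Itgb7* (1540 bases), *S1pr2* (2815) and *Gpr183* (2942) did not match their transcript means of 870, 2195 and 1543 bases. That of *Gpr183* exceeded its longest transcript of 2724 bases. The annotation release behind the deposited lengths was not stated. Per kilobase of the longest transcript, with depth scaled as in FPKM, *Itga4* was at 14.9 ± 1.56 (SD, n = 6), below *S1pr1* at 30.8 ± 9.92 and *S1pr4* at 26.9 ± 8.35 and above *Itgb7* at 10.8 ± 1.87, and *Itgb2* (50.7 ± 3.93) stood level with *Itgb1* (48.9 ± 5.68). *Itgal* at the top and *Gpr183* and *S1pr2* at the bottom kept their places under both lengths. Within a gene the length cancels from a ratio of FPKM between genotypes, but it enters the filter at 0.5 FPKM and the log2(FPKM + 1) scale, most of all for *S1pr2*, which was at 0.440 ± 0.138 per kilobase of its longest transcript.

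**Figure D1:**
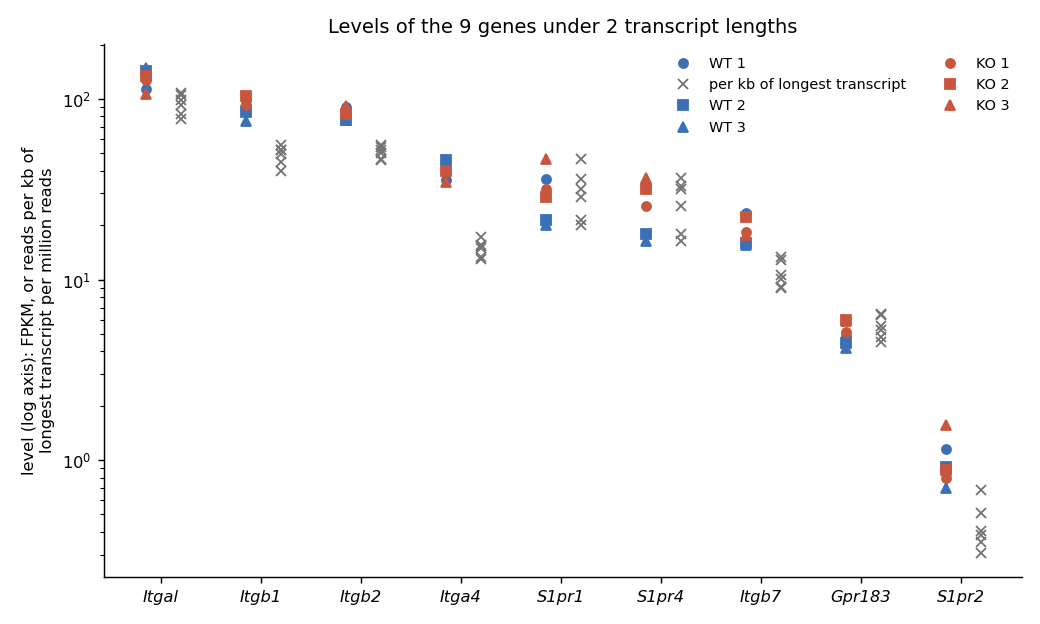
Level of each of the 9 genes in each library on a log axis, with coloured points for FPKM and grey crosses for reads per kilobase of the longest annotated transcript, scaled to depth as FPKM is. *Itgal* is highest and *S1pr2* lowest on both scales, while *Itga4* drops from a mean of 39.7 to 14.9, below *S1pr1* and *S1pr4*.

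*Itga4* encodes α4, the chain that both gut-homing α4β7 and VLA-4 need, and lies at chr2:79255426-79333123 (GRCm38). It was at 35.5, 46.0 and 41.5 FPKM in WT libraries and at 40.7, 39.7 and 34.7 FPKM in *Hif1a* KO libraries, on 3737 to 5222 reads. The groups overlapped, with WT replicate 1 and KO replicate 3 lowest. The group means were 41.0 ± 5.27 and 38.4 ± 3.21 FPKM, and the fold change of -0.09 (SE 0.11, 95% CI -0.35 to 0.17) had an adjusted p of 0.778 (limma, Benjamini-Hochberg). Of the exon bases of *Itga4*, 8.04% also belong to *Cerkl*, and reads there could be assigned to either gene.

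*Itgb7* encodes β7, the chain that with α4 gives the gut-homing receptor, and lies at chr15:102215995-102231944. Its levels were 23.4, 15.9 and 15.6 FPKM in WT libraries and 18.4, 22.3 and 17.6 FPKM in KO libraries, on 623 to 1340 reads. The highest and the lowest library were both WT, so the KO values fell inside the WT range. The means of 18.3 ± 4.41 and 19.4 ± 2.51 FPKM gave a fold change of 0.10 (SE 0.17, 95% CI -0.30 to 0.50) with an adjusted p of 0.840 (limma, Benjamini-Hochberg).

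*Itgb1* encodes β1, the partner of α4 in VLA-4 and of many other α chains, and lies at chr8:128685654-128733200. It was at 98.9, 84.2 and 75.5 FPKM in WT libraries and at 93.0, 105 and 97.9 FPKM in KO libraries. WT replicates 2 and 3 were the lowest of the 6, and WT replicate 1 exceeded 2 of the KO libraries. With means of 86.2 ± 11.9 and 98.5 ± 5.78 FPKM, the fold change was 0.20 (SE 0.11, 95% CI -0.05 to 0.45, adjusted p = 0.626 by limma).

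*Itgal* (chr7:127296260-127335138), the αL chain of LFA-1, was at 113, 144 and 148 FPKM in WT libraries and at 127, 135 and 106 FPKM in KO libraries. *Itgb2* (chr10:77530252-77565708), the β2 chain that all leukocyte β2 integrins share, was at 89.7, 76.7 and 76.0 FPKM in WT libraries and at 86.3, 82.6 and 91.3 FPKM in KO libraries. In WT replicates 2 and 3 *Itgal* was higher, and *Itgb2* lower, than in any other library. The fold changes were -0.13 (SE 0.13) for *Itgal* and 0.10 (SE 0.08) for *Itgb2*, with adjusted p of 0.727 and 0.681 (limma, Benjamini-Hochberg), and WT replicate 1 lay within the KO range in both.

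*S1pr1* (chr3:115710433-115715072), the receptor that drives egress from lymphoid organs, was at 36.3, 21.4 and 19.9 FPKM in WT libraries and at 31.6, 28.7 and 46.6 FPKM in KO libraries, on 1578 to 4243 reads. WT replicate 1 was second only to KO replicate 3, so the groups overlapped. The means were 25.9 ± 9.03 and 35.7 ± 9.62 FPKM, 37.8% apart, and the fold change of 0.47 (SE 0.26, 95% CI -0.15 to 1.09) had an adjusted p of 0.626 (limma, Benjamini-Hochberg).

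*S1pr4* (chr10:81497747-81500132), an S1P receptor largely restricted to haematopoietic cells, had the largest fold change of the 9. It was at 33.1, 17.8 and 16.4 FPKM in WT libraries and at 25.6, 31.7 and 36.4 FPKM in KO libraries, on 1017 to 2945 reads. Here too WT replicate 1 stood among the KO libraries, above 2 of the 3. The means of 22.4 ± 9.29 and 31.2 ± 5.43 FPKM gave a fold change of 0.51 (SE 0.26, 95% CI -0.11 to 1.14, adjusted p = 0.626 by limma). Without WT replicate 1 the fold change was 0.82 (SE 0.14) with an adjusted p of 0.0260, and *S1pr4* was then the only one of the 9 genes called, when 9.4% of all genes tested were. Weighting libraries by their fit to the model gave WT replicate 1 a weight of 0.24, against 2.42 and 2.08 for WT replicates 2 and 3. This fit comes close to leaving WT replicate 1 out and is not a separate check. *S1pr4* had a fold change of 0.72 in it with an adjusted p of 0.0398 (limma). It was the only one of the 9 called, when 10.9% of all genes tested were called.

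*S1pr2* (chr9:20962361-20976781), the receptor that opposes migration and keeps B cells in germinal centres, was close to the lower limit of what was tested. It was at 1.15, 0.918 and 0.698 FPKM in WT libraries and at 0.795, 0.879 and 1.56 FPKM in KO libraries, on 51 to 131 reads. KO replicate 3 was highest and WT replicate 3 lowest, and the other 4 were mixed. The fold change of 0.10 (SE 0.18, 95% CI -0.32 to 0.52) had an adjusted p of 0.845 (limma), a scale on which changes of so low a gene are understated.

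*Gpr183* (chr14:121952551-121965195), the oxysterol receptor, was at 4.89, 4.44 and 4.20 FPKM in WT libraries and at 5.11, 5.99 and 5.86 FPKM in KO libraries, on 321 to 605 reads. Every KO value lay above every WT value, as in 4.06% of all genes tested, with a gap between WT replicate 1 and KO replicate 1 smaller than the SD of either group. The means were 4.51 ± 0.353 and 5.65 ± 0.476 FPKM, 25.3% apart. The fold change of 0.27 (SE 0.10, 95% CI 0.04 to 0.50) had an unadjusted p of 0.0277 and an adjusted p of 0.626 in the limma fit across all genes, and it ranged from 0.23 to 0.33 when each library was left out in turn.

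**Figure D2:**
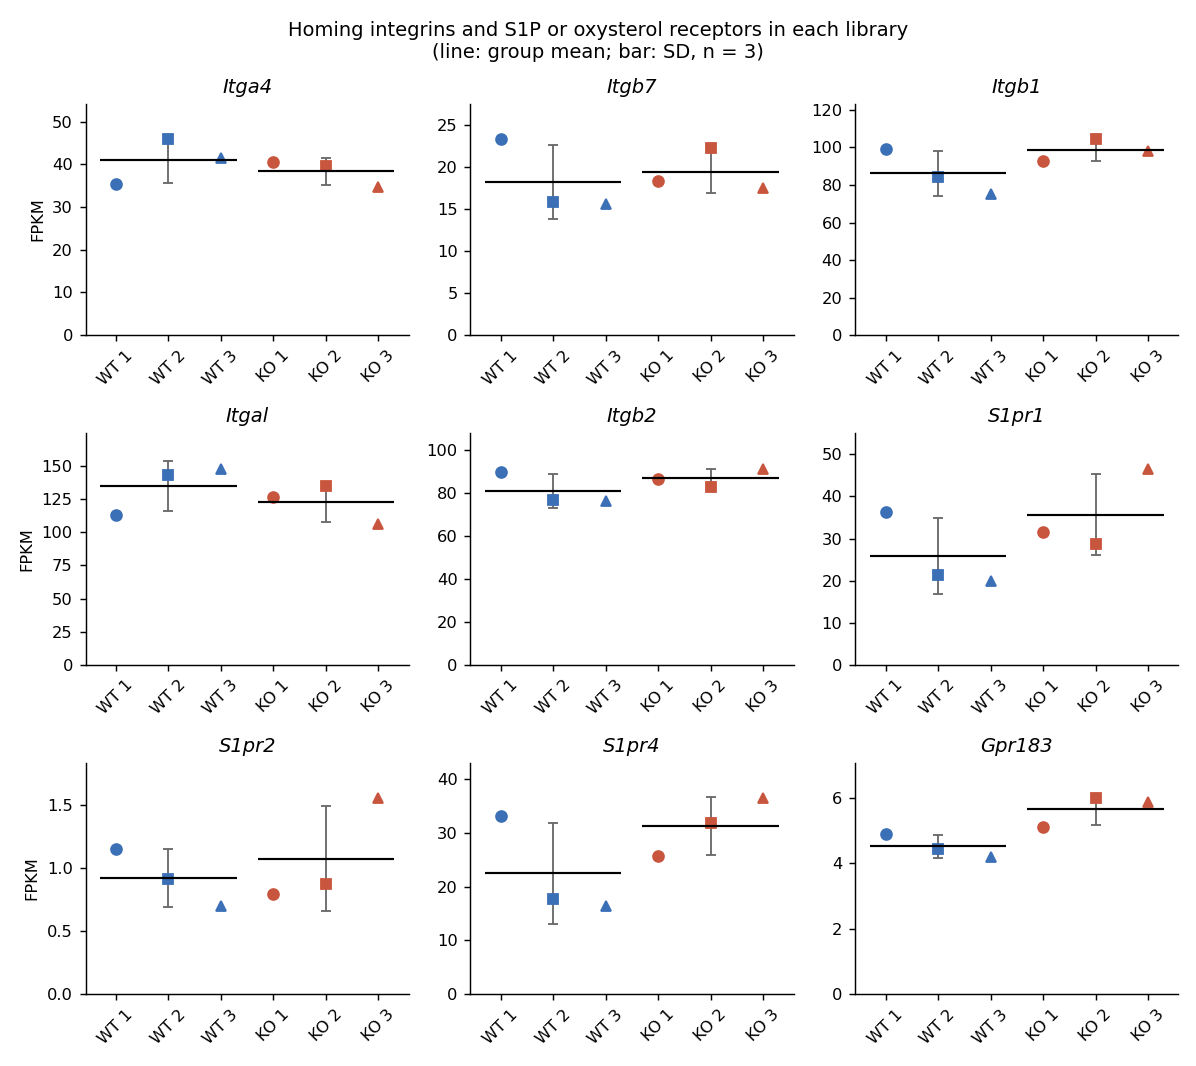
FPKM of each of the 9 genes in the 3 WT (blue) and 3 *Hif1a* KO (red) libraries, with symbols marking the replicate number, black lines the group means and grey bars the SD. In *Gpr183* alone the groups are apart, while in *S1pr1* and *S1pr4* WT replicate 1 (36.3 and 33.1 FPKM) stands with the KO libraries and away from WT replicates 2 and 3.

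In 8 of the 9 genes, all but *S1pr2*, WT replicates 2 and 3 were both above or both below the other 4 libraries, as they were in 47.5% of all genes tested. They were both highest in *Itga4* and *Itgal* and both lowest in *Itgb7*, *Itgb1*, *Itgb2*, *S1pr1*, *S1pr4* and *Gpr183*. Given that order, a fit without WT replicate 1 had to give larger differences for these 8 genes. Its calls are thus no separate evidence of a difference between genotypes. Leaving out WT replicate 1 moved all 9 fold changes further from 0. The values without it were -0.19 for *Itga4*, 0.28 for *Itgb7*, 0.30 for *Itgb1*, -0.26 for *Itgal*, 0.18 for *Itgb2*, 0.73 for *S1pr1*, 0.18 for *S1pr2* and 0.32 for *Gpr183*, with adjusted p from 0.0649 to 0.555 (limma, Benjamini-Hochberg), and 0.82 for *S1pr4* as given. The macrophage marker *Lyz2* was highest, and *Apoe* of the same list lowest, in WT replicates 2 and 3. The plasma cell marker list summed to 834 and 791 FPKM there, against 1281 FPKM in WT replicate 1 and 902 to 1580.5 FPKM in KO libraries. Of its 5 tested genes, 3 set WT replicates 2 and 3 apart from the other 4 libraries, while *Mzb1* and *Sdc1* overlapped. The 6 erythroid markers summed to 16.2 and 13.5 FPKM in WT replicates 2 and 3 and to between 2.91 and 4.72 FPKM in the other 4. Of the 3 that were tested, 2 set these libraries apart, while *Hbb-bt*, at 2.80 and 2.85 FPKM in them, was at 3.77 FPKM in KO replicate 2. The 8 dendritic cell markers summed to 17.0 to 18.7 FPKM in WT and 12.4 to 13.9 FPKM in KO libraries, so that these sums did not overlap between groups. Of the 5 that were tested, only *Siglech* had groups apart (20%, against 10.1% of all genes), and *Flt3*, the highest of the list, overlapped. The part of these cells in the values of the 9 genes was not tested.

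**Figure D3:**
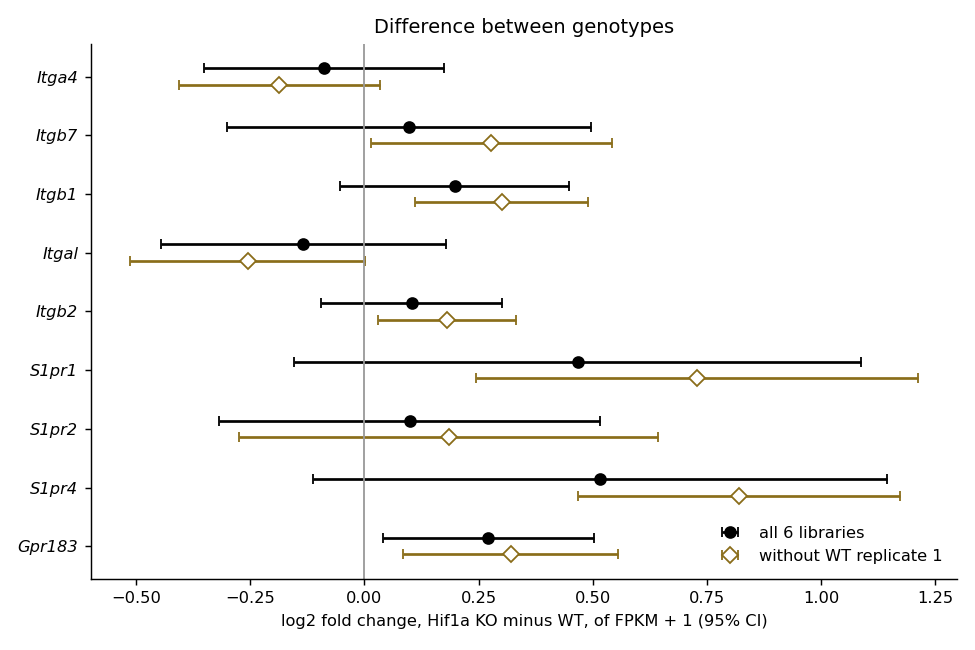
Log2 fold change of FPKM + 1, *Hif1a* KO minus WT, with its 95% CI for each of the 9 genes, from all 6 libraries (black circles) and without WT replicate 1 (open diamonds). Only the interval of *Gpr183* lies above 0 with all libraries, and every estimate without WT replicate 1 is further from 0.

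Ratios between 2 genes of 1 library, which no scaling of the library affects, were compared for 3 pairs. The ratio of *Itgb7* to *Itgb1*, the chains that compete for α4, was 23.6%, 18.9% and 20.6% in WT libraries and 19.7%, 21.3% and 17.97% in KO libraries. The groups overlapped and the log2 ratios differed by -0.10 (-2.25 ± 0.16 against -2.35 ± 0.12, SD, n = 3, exact permutation test, two-sided, p = 0.5, adjusted over the 3 ratios 0.5). *Itgal* was 3.19, 3.12 and 3.57 times *Itga4* in WT libraries and 3.11, 3.39 and 3.06 times in KO libraries, a log2 difference of -0.04 (1.72 ± 0.10 against 1.67 ± 0.08, exact permutation p = 0.5, adjusted 0.5). *S1pr1*, which promotes exit, was 31.4, 23.3 and 28.6 times *S1pr2*, which opposes it, in WT libraries and 39.8, 32.7 and 29.9 times in KO libraries. That log2 ratio was 4.78 ± 0.22 in WT and 5.08 ± 0.21 in KO libraries, a difference of 0.30 (exact permutation p = 0.2, adjusted 0.5), and WT replicate 1 lay above KO replicate 3. The smallest p that 3 libraries against 3 allow is 0.1, so none of these tests could pass 0.05. The size of a ratio between genes, though not its log2 difference between genotypes, rests on the transcript lengths. Per kilobase of the longest transcripts, *Itgal* was 5.94 to 6.92 times *Itga4*, *S1pr1* was 53.0 to 90.3 times *S1pr2*, and *Itgb7* was 19.5% to 25.6% of *Itgb1* over the 6 libraries.

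**Figure D4:**
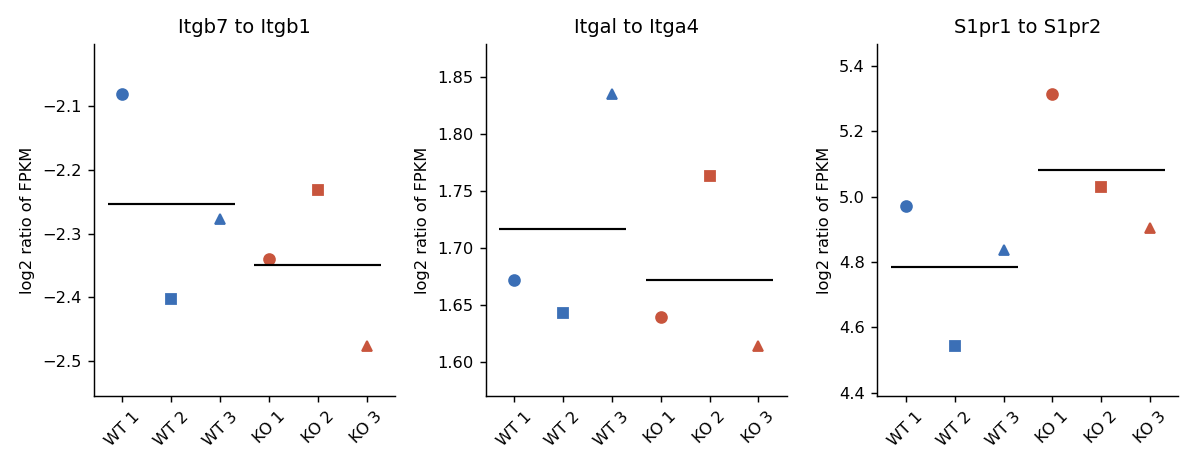
Log2 ratio of FPKM between 2 genes in each library for *Itgb7* to *Itgb1*, *Itgal* to *Itga4* and *S1pr1* to *S1pr2*, with WT in blue, *Hif1a* KO in red and lines at the group means. The groups overlap in all 3 panels, and the means of *S1pr1* to *S1pr2* lie furthest apart, at 4.78 and 5.08.

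Of the 21 other integrin chains on a fixed list, 9 were at a mean of at least 0.5 FPKM and were tested, and 0 of these differed at an adjusted p under 0.05 (limma). One had an unadjusted p under 0.05, and 1 of the 9 had groups apart (11.1%, against 10.1% of all genes). The median fold change of the 9 was -0.01, beside -0.03 over all genes tested. *Itga6*, the laminin-binding α6 chain, was the highest of the list at 22.5, 13.6 and 13.5 FPKM in WT libraries and 24.0, 17.7 and 28.3 FPKM in KO libraries, with a fold change of 0.49 (adjusted p = 0.626 by limma). *Itgb3*, the β3 chain of the vitronectin receptor, was at 3.23, 1.63 and 1.67 FPKM in WT libraries and between 2.96 and 3.30 FPKM in KO libraries, and without WT replicate 1 it was the 1 gene of the list called, with a fold change of 0.63 (adjusted p = 0.0186 by limma). *Itgae*, whose αE chain pairs with β7 to bind E-cadherin on epithelium, ranged from 2.11 to 3.87 FPKM in WT and from 2.13 to 6.28 FPKM in KO libraries. *Itga2b*, a platelet chain that is also on the platelet marker list, was at 2.02, 2.11 and 2.09 FPKM in WT libraries and at 1.59, 1.42 and 1.06 FPKM in KO libraries (fold change -0.39, adjusted p = 0.626 by limma).

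Of 25 genes that link integrins to the cytoskeleton and switch them on, 20 were tested and 0 called with all libraries, while 3 had an unadjusted p under 0.05 and 6 had groups apart (30.0%, against 10.1% of all genes), 3 of them higher and 3 lower in KO cells. *Tln1*, which encodes talin, was the highest at 381 ± 36.5 FPKM in WT and 368 ± 40.9 FPKM in KO libraries, and *Fermt3* (kindlin-3), the other direct activator of β chains in leukocytes, was at 111 ± 3.00 and 109 ± 9.47 FPKM. *Rassf5*, whose product RAPL carries Rap1 signals to LFA-1, was at 45.1, 38.5 and 37.5 FPKM in WT libraries and at 50.1, 52.6 and 49.9 FPKM in KO libraries (fold change 0.33, SE 0.08, adjusted p = 0.626 by limma). *Vcl* (vinculin) was at 3.90 ± 0.546 and 5.03 ± 0.270 FPKM and *Pxn* (paxillin) at 96.0 ± 5.17 and 90.0 ± 0.533 FPKM, with the groups apart in both. *Fyb*, an adaptor of integrin activation in T cells and myeloid cells, was at 0.860, 3.04 and 2.46 FPKM in WT libraries and at most 0.469 FPKM in KO libraries. Its difference was the largest of the list at -1.13 (SE 0.29). WT replicates 2 and 3 were highest, and they stood apart from the other 4 libraries in 47.5% of all genes tested. Without WT replicate 1, 4 of the 20 were called higher and 1 lower, where 9.4% of all genes tested were called.

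Of 21 integrin ligands and other adhesion molecules, 17 were tested and 0 called, 4 had an unadjusted p under 0.05 and 2 had groups apart (11.8%), with a median fold change of 0.05. *Madcam1*, the ligand of α4β7, stayed below 0.5 FPKM in every library, at 0.113 to 0.298 FPKM. *Vcam1*, the ligand of VLA-4, was at 0.456, 5.39 and 3.75 FPKM in WT libraries and at 0.272 to 0.580 FPKM in KO libraries. WT replicate 1 stood with the KO libraries, and WT replicates 2 and 3 stood apart, as in 47.5% of all genes tested. *Icam1*, the ligand of LFA-1, was at 28.3, 42.3 and 44.0 FPKM in WT libraries and between 27.5 and 30.3 FPKM in KO libraries (fold change -0.35, adjusted p = 0.626 by limma). The tetraspanin genes *Cd81*, at 113, 168 and 163 FPKM in WT libraries and 108 to 118 FPKM in KO libraries, and *Cd9*, at 43.5 ± 5.10 and 36.2 ± 1.97 FPKM, had fold changes of -0.37 and -0.26 (adjusted p = 0.626 for each by limma). *Cd48*, a CD2-family ligand, was at 121 ± 7.28 and 137 ± 2.86 FPKM with the groups apart, and the tetraspanin gene *Cd37*, the highest of the list, was at 549 ± 13.0 and 525 ± 88.9 FPKM. Without WT replicate 1, 2 of the 17 were called higher and 3 lower, beside 9.4% of all genes tested.

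Of 25 genes of the other S1P receptors and of S1P synthesis, export and breakdown, 20 were tested and 0 called with all libraries, and 0 were called without WT replicate 1 (2 had an unadjusted p under 0.05 by limma, and 2 of 20 had groups apart, 10.0%). Their median fold change was 0.01. *S1pr5* was listed at 0 in all 6 libraries. *S1pr3*, a receptor of vascular and other tissues, was at 2.02, 3.01 and 2.51 FPKM in WT libraries and at 1.49, 2.02 and 1.58 FPKM in KO libraries. It had a fold change of -0.38 (SE 0.14, adjusted p = 0.626 by limma) opposite in sign to those of *S1pr1*, *S1pr2* and *S1pr4*. Of the kinases that make S1P, *Sphk1* was listed at 0 in 5 libraries and at 0.0505 FPKM in WT replicate 3, while *Sphk2* was between 12.5 and 14.6 FPKM in all 6. *Sgpl1*, the lyase that destroys S1P, was the highest of the list at 133 ± 13.4 and 146 ± 37.0 FPKM. *Asah2*, a ceramidase that supplies sphingosine, was at 0.997 ± 0.146 and 1.47 ± 0.0633 FPKM with the groups apart (fold change 0.31, adjusted p = 0.626 by limma).

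All 25 genes that carry or control S1P receptor signals were tested, 0 were called, 2 had an unadjusted p under 0.05, and 1 had groups apart (4%). The fold change was above 0 in 19 of the 25, with a median of 0.07, where 42.1% of all genes tested were above 0. *Klf2*, the factor that transcribes *S1pr1*, was at 44.3, 29.2 and 29.9 FPKM in WT libraries and at 38.4, 44.1 and 40.1 FPKM in KO libraries. *Foxo1*, which acts above *Klf2*, was at 31.5, 23.4 and 23.0 FPKM in WT libraries and at 33.8, 30.7 and 34.7 FPKM in KO libraries. Their fold changes of 0.26 and 0.35 had adjusted p of 0.640 and 0.626, and without WT replicate 1 they were 0.45 and 0.49 with adjusted p of 0.0220 and 0.0173 (limma, Benjamini-Hochberg). *Cd69*, whose product pulls S1PR1 from the surface, was at 61.4 ± 4.11 and 58.3 ± 3.10 FPKM. *Rgs2*, a brake on G protein signals, was at 95.78, 49.6 and 50.6 FPKM in WT libraries and at 95.87, 102 and 110 FPKM in KO libraries, so that WT replicate 1 lay just below KO replicate 1 (fold change 0.71, SE 0.24, adjusted p = 0.626 by limma). *Gna13* and *Arhgef1*, through which S1PR2 acts on RhoA, were at 37.3 ± 1.21 and 39.8 ± 2.08 FPKM and at 408 ± 8.98 and 441 ± 25.6 FPKM. *Gnai2*, the G protein chain of S1PR1, was the highest of the list at 1054 ± 28.2 and 1072 ± 103 FPKM. *Rgs1* was at 8.60 ± 1.07 and 10.3 ± 2.13 FPKM. Without WT replicate 1, 6 of the 25 were called, each of them higher in KO cells, where 9.4% of all genes tested were called and 3.64% were called higher. In 16 of the 25, WT replicates 2 and 3 were both above or both below the other 4 libraries, as in 47.5% of all genes tested. *Klf2* was highest in WT replicate 1, and *Foxo1* there lay within the KO range. The calls without WT replicate 1 are thus no separate evidence of a difference between genotypes.

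Of 9 genes of oxysterol synthesis and breakdown, 3 were tested and 0 called (0 had an unadjusted p under 0.05 by limma). *Ch25h*, which makes the precursor of the GPR183 ligand, was at most 0.144 FPKM, and *Cyp7b1* and *Hsd3b7*, which complete and degrade the ligand, were listed at 0 in all 6 libraries. *Nr1h2*, the oxysterol-binding nuclear receptor LXRβ, was at 52.6 ± 2.36 and 50.0 ± 3.00 FPKM.

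Of 18 other genes of gut homing and retinoic acid response, 12 were tested, 0 were called by limma, 3 had an unadjusted p under 0.05 (6.98% of all genes tested did) and 0 had groups apart. The fold change was above 0 in 6 of the 12 and below 0 in the other 6, with a median of -0.10. *Cxcr4*, the highest, was at 185 ± 20.6 and 199 ± 46.2 FPKM. *Ccr6*, a chemokine receptor of B-cell trafficking in Peyer's patches, was at 199, 146 and 155 FPKM in WT libraries and at 194, 232 and 223 FPKM in KO libraries (fold change 0.38, SE 0.13, adjusted p = 0.626 by limma). *Ccr9*, the small-intestine homing receptor, was at 6.09, 1.17 and 1.05 FPKM in WT libraries and at 5.82, 2.47 and 8.43 FPKM in KO libraries, with a fold change of 0.94 (SE 0.56) that was smaller than 2 SE. *Cnr2*, the cannabinoid receptor of B cells, was at 14.6 ± 0.998 and 18.1 ± 2.51 FPKM, and *Rara*, a retinoic acid receptor, at 60.7 ± 5.45 and 52.6 ± 2.82 FPKM. The homing receptors *Ccr10* and *Gpr15*, named after their values were seen, had fold changes below 0. *Ccr10* was at 1.93, 4.75 and 4.86 FPKM in WT libraries and at 2.13, 1.55 and 2.42 FPKM in KO libraries (fold change -0.62, adjusted p = 0.626 by limma). *Gpr15* was at 30.9, 55.2 and 55.6 FPKM in WT libraries and at 43.9, 30.2 and 30.6 FPKM in KO libraries (fold change -0.40, adjusted p = 0.646 by limma). Without WT replicate 1, *Ccr6* was called higher (0.52, adjusted p = 0.0244) and *Ccr10* lower (-0.95, adjusted p = 0.0181), 2 of the 12 beside 9.4% of all genes tested by limma. WT replicates 2 and 3 stood apart from the other 4 libraries in 10 of the 12. These 2 calls are thus no separate evidence of a difference between genotypes.

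**Figure D5:**
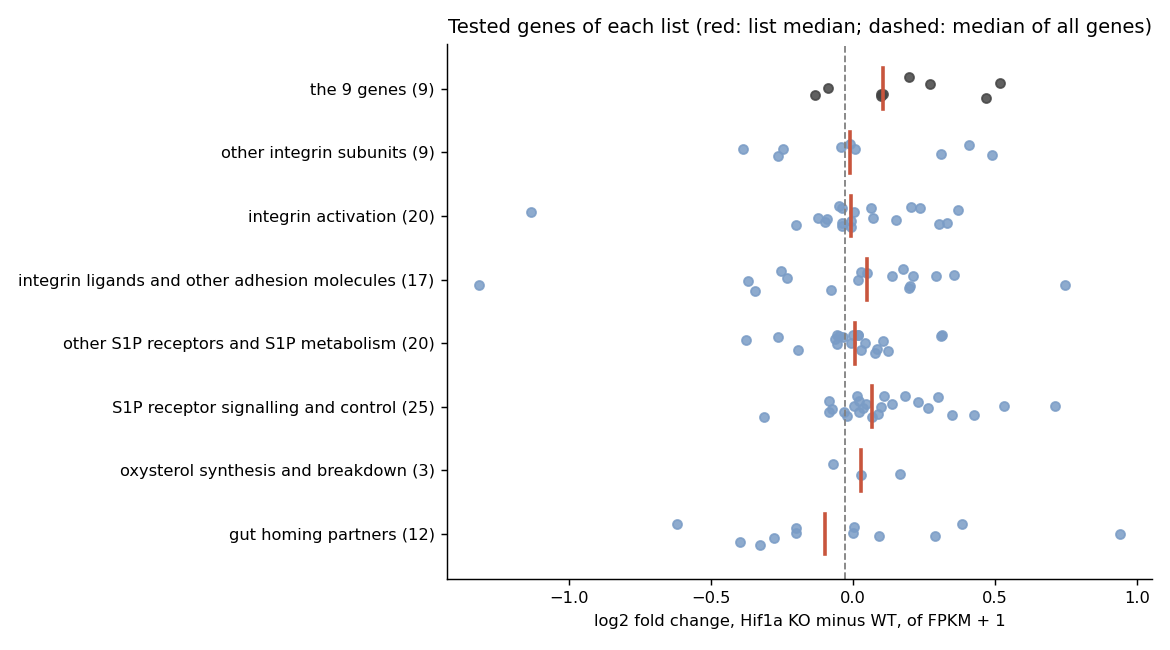
Log2 fold change of FPKM + 1, *Hif1a* KO minus WT, of each tested gene of the 9 genes and of 7 lists, with the number tested in brackets, red bars for list medians and a dashed line for the median of all genes tested (-0.03). The list medians lie between -0.10 and 0.10, and *Vcam1*, *Fyb* and *Ccr9* lie furthest out.

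The genes whose levels over the 6 libraries were most like those of *Itgb7*, *S1pr1* and *Gpr183* were sought among 9275 genes with a mean of at least 5 FPKM, by Pearson's r of log2(FPKM + 1), as a description over 6 libraries that share their depth and composition. For *S1pr1* they were *Btg2* (r = 0.998), *Dcaf12* (r = 0.998) and *Hint3* (r = 0.995), and 304 genes had an r above 0.95. For *Gpr183* they included *Sh3bp2* (0.987) and *Mat2b* (0.985), with 29 genes above 0.95, and for *Itgb7* they were *Paf1* (0.989), *Arpc1a* (0.983) and *Maz* (0.982), with 20. *Btg2* was at 133, 87.0 and 85.2 FPKM in WT libraries and at 123, 111 and 161 FPKM in KO libraries, with WT replicates 2 and 3 lowest and KO replicate 3 highest as in *S1pr1*.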

How the data were processed

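RNA-seq libraries of cultured splenic B cells, 3 WT and 3 *Hif1a* KO, were analysed. The authors aligned paired-end reads to mm10 (GRCm38) with TopHat, counted them per gene with HTSeq and deposited FPKM values, 1 column per library, with no library pooled. Gene identifiers were named with GENCODE vM21 (46488 of 46983). Depth and read numbers were recovered from FPKM, whose low values are whole multiples of 1 read (25716 of 25717 genes above 0 gave whole reads in all libraries, within 0.002 reads at low counts).

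Genes with a mean of at least 0.5 FPKM (13312) were tested on log2(FPKM + 1) with limma 3.58.1 (R 4.3.3, variance trend), with Benjamini-Hochberg adjustment over all of them and a threshold of 0.05, without covariates. Ratios were compared by exact permutation tests. Read numbers show counting error only. The 9 genes, the lists and the tests were chosen with earlier results of these data known. All 9 genes were described, and from each list the highest gene, up to 4 with the largest change among those with an unadjusted p under 0.05 or groups apart, and genes picked by role. Promoter letters came from RefSeq. Some genes that these rules name are not reported here. Alternatives were another pseudocount, filter, scaling or weighting, limma-voom on recovered reads, a replicate block and leaving out each library. Levels and ratios per longest transcript were added after the data were seen.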

Additional observations from a re-analysis of the deposited data

How the results depend on the processing

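With the pseudocount of 0.1, either other filter, median-ratio scaling, quantile normalization, no variance trend, limma-voom on recovered reads or a replicate block, 0 genes were called over all genes and 0 of the 9, and every fold change of the 9 kept its sign (*S1pr2* is below the filter of 5 FPKM). Library weights, lowest for WT replicate 1 at 0.24, gave 1449 genes, 1 of the 9 among them, *S1pr4* at 0.72. Leaving out each library in turn gave 0 to 1251 genes (1251 without WT replicate 1, 1 without KO replicate 1 and 0 otherwise) and 0 to 1 of the 9. Over these fits the fold change ranged from 0.33 to 0.82 for *S1pr4*, from -0.00049 to 0.28 for *Itgb7* and from -0.060 to 0.20 for *S1pr2*, and the log2 ratio of *Itgal* to *Itga4* differed by -0.090 to 0.015. *Itgb7* fell below 0 without WT replicate 3 or KO replicate 2, *S1pr2* without KO replicate 3, and the ratio turned positive without WT replicate 3. In the other 7 genes and the other 2 ratios the sign held in each of these fits. Libraries of the same replicate number did not deviate together (correlations of -0.0987, 0.139 and -0.276). These are deviations from means of 3 libraries, so they cannot settle whether the numbers pair the libraries. The replicate block called 0 genes, leaves every fold change as it is by construction (*Gpr183* 0.27), and gave *Gpr183* an adjusted p of 0.780 against 0.626 (limma). For the ratios, sign flips over 3 pairs cannot give a p below 0.25. Few reads limit *S1pr2*, at 51 to 131 reads.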
